A study of Mus musculus with 12 samples.

Results

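The genes described here encode the proteins of the cytosolic ribosome, the particle that translates the messenger RNAs of the nucleus. Members were the protein-coding mouse genes with a symbol beginning Rpl or Rps followed by a digit, together with Rplp0, Rplp1, Rplp2 and Rpsa. Of 101 genes with such a symbol, 9 Rps6k kinases, 1 further gene (Rps27l) and 6 genes whose symbols mark them as pseudogenes were left out. This left 85 of the 51707 genes in the annotation, 52 with large subunit symbols and 33 with small subunit symbols. Of these, 77 encode the canonical proteins (46 large, 31 small) and 8 are paralogs or bear the symbol without being part of the canonical particle. In all, 82 of the 85 passed the low-count filter that 14711 genes of the series passed.

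The 12 libraries were bulk RNA-seq of MLO-Y4, an established mouse osteocyte-like cell line labelled WT, grown in all groups on plates coated with 0.15 mg/mL collagen. The 4 groups of 3 libraries were undifferentiated control cells, undifferentiated cells treated with BIGH3, differentiated control cells and differentiated cells treated with BIGH3. BIGH3 is the secreted matrix protein encoded by TGFBI, added here as recombinant human protein. Differentiated cells were kept in medium containing 10% serum to which 50 µg/mL of ascorbic acid was added along with β-glycerophosphate (4 mM), so that medium and differentiation cannot be told apart. The dose and time of BIGH3, what the controls received and the medium of the undifferentiated cells are items not given in the sources used here. Nothing in the labels ties the 3 libraries of each group to separate cultures, so the p-values measure only the spread between these libraries, which may be technical. MLO-Y4 is a clonal line, and the deposited names carry the prefix MC3 where the labels say MLO-Y4. Whether the cells were MLO-Y4 was not tested.

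A ribosome has a small subunit, which binds the messenger RNA and reads its codons, and a large subunit, which joins the amino acids and passes the growing chain through an exit tunnel. Each subunit is built in the nucleolus from ribosomal RNA and a fixed set of proteins, and their messenger RNAs are among the most abundant in growing cells. Most of these messenger RNAs begin with a C followed by a run of pyrimidines, the 5′ terminal oligopyrimidine (TOP) motif, through which their translation follows growth signals such as mTOR.

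The libraries held 19014492 to 27612155 estimated reads each, of which 1.28% to 3.67% fell on transcripts that did not match a gene. Reads of genes encoded by the mitochondrial genome took 4.39% ± 0.417 (SD, n = 3) of the reads in undifferentiated controls and 5.03% ± 0.722 in undifferentiated BIGH3 cells. In differentiated cells this share was 9.24% ± 1.7 in controls and 8.89% ± 0.486 with BIGH3. Of the osteocyte markers, Pdpn, Dmp1, Gja1 and Phex had reads in every library, Fgf23 was at 0 in all 12, and Sost was at 0 outside the second and the third differentiated controls. Dkk1 and Mepe were at or near 0, so these defining markers of mature osteocytes were nearly absent. Markers of hepatocytes, 12 genes in all with Serpina1a at 0 throughout, summed to 120 CPM (counts in 1000000 matched reads, for these markers without TMM scaling) in the second undifferentiated control, 72.9 in the third differentiated BIGH3 library, 49.6 in the second differentiated control and 25.2 in the first undifferentiated BIGH3 library. They summed to 4.71 to 24.9 in the other 8. One of the 12, Trf (transferrin), moved with the groups, at 19.3, 19.4 and 24.1 CPM in the 3 differentiated BIGH3 libraries, 4.29 to 7.42 in differentiated controls and 0.171 to 4.93 in undifferentiated libraries. Their part in the results was not tested, and counts without the first 3 or all 4 of those libraries stand beside the results below. Because these are bulk samples, fewer cells and less RNA per cell cannot be told apart.

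Runs of pyrimidines near the start site were more frequent in these genes than in all genes, but the TOP motif itself was not scored. RefSeq promoter sequences (GRCm38.p6, 250 bases before to 50 after each start site) matched 65 of the 85 members by symbol, or 76.5%. A run of at least 8 bases made only of C and T, on the gene's strand, began within 20 bases before to 50 after the start site in 48 of the 65 (73.8%), against 7705 of 27025 genes with a promoter sequence (28.5%). Among the canonical members it was 45 of 57 (78.9%). The letters CTTTCC, which can lie inside such a run, occurred in the same window and strand in 20 of the 65 members (30.8%) and in 1025 of the 27025 genes (3.79%). The following 30-base windows show the run in capitals with 5 bases before it, for members whose levels are described below, the first 3 from genes that fell with BIGH3 in differentiated cells, the next 2 from genes that did not pass the test there, and the last from Rpl22l1, a paralog that fell. These 6 were chosen after their values were seen.
Rps12: gccggCCTTTTCCCCTgccgccgccgactt
Rps15a: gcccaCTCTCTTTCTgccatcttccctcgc
Rplp2: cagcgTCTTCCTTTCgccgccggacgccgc
Rps10: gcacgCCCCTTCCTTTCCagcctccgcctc
Rpl15: gaaagCCTTCTTCCTTTCCTCTggcggcag
Rpl22l1: gcccgTTCTCTTCCCacggctgcagctcaa
The runs were 10 or 11 bases long in the first 3, in Rps12 at chr10:23787177-23787206 and in Rps15a at chr7:118116138-118116167, both on the minus strand. They were 13 bases in Rps10 and 17 in Rpl15. Relative to the start site, the runs began at 9 in Rps12, -15 in Rps15a and -5 in Rplp2. They began at -3 in Rps10, -4 in Rpl15 and 2 in Rpl22l1. None of the runs shown began at the start site itself, as a TOP motif would. Of the members tested for BIGH3 in differentiated cells, 14 of 47 with a run (29.8%) and 5 of 15 without one (33.3%) were called lower, and the difference between the 2 shares was not tested. A match is a description of the letters in the reference, and no translation was measured.

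The share of reads taken by the 85 genes separated the 4 groups without overlap. In undifferentiated controls it was 6.31%, 6.23% and 6.20% of the reads matched to genes in the 3 libraries. Undifferentiated BIGH3 cells had 6.46%, 6.58% and 6.58%, all above the controls. Differentiated controls had 5.59%, 5.49% and 5.45%, and differentiated BIGH3 cells had 5.42%, 5.19% and 4.75%. Every differentiated library was thus below every undifferentiated one, and BIGH3 libraries lay above their controls in undifferentiated and below them in differentiated cells. The third differentiated BIGH3 library was the lowest of the 12, and it is also 1 of the libraries with more hepatocyte marker reads. Group means were 6.25% ± 0.0577 (SD, n = 3), 6.54% ± 0.0727, 5.51% ± 0.0701 and 5.12% ± 0.339 in the same order. On the TPM scale, which divides by transcript length, the members took 16.7% ± 0.312, 17.4% ± 0.377, 13.6% ± 0.23 and 12.8% ± 0.809 of the total. Here the first differentiated BIGH3 library, at 13.6%, lay above the third differentiated control, at 13.3%, so these 2 groups overlapped. After TMM scaling, which sets the bulk of genes level between libraries, their summed level was 59230 ± 620, 63110 ± 1200, 57900 ± 732 and 53440 ± 4200 CPM, again without overlap between groups. The share of mitochondrially encoded reads given above was higher in all differentiated libraries, and its part in the lower shares was not tested.

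**Figure D1:**
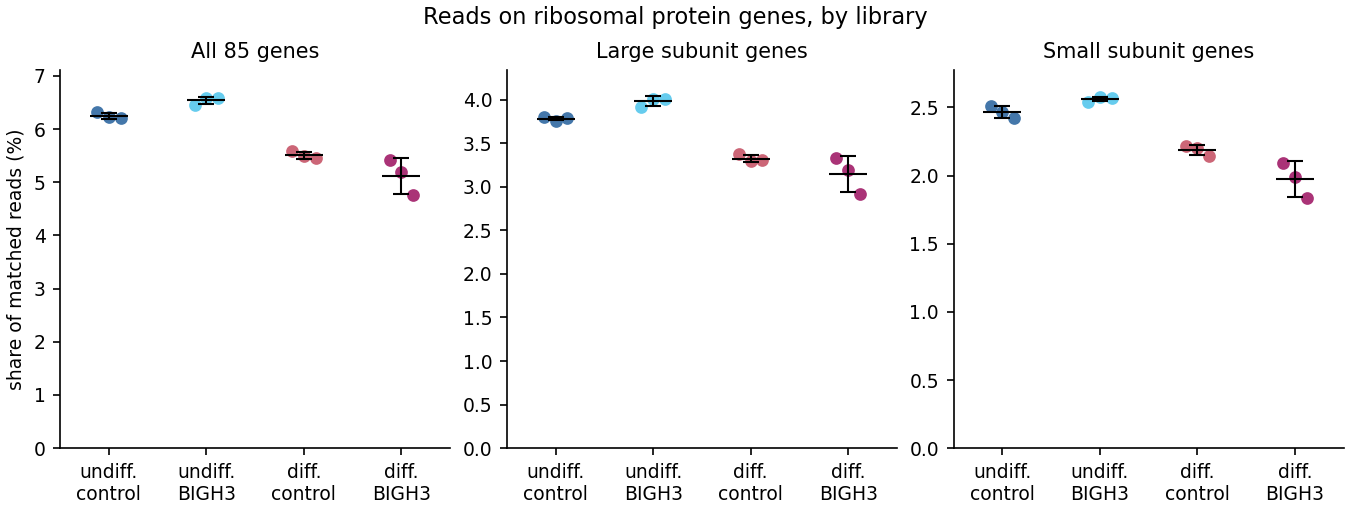
Share of matched reads (%, vertical axes from 0) on all 85 genes, on large subunit genes and on small subunit genes in each of the 12 libraries (points), with the mean and SD of each group of 3 (black). The shares of all 85 genes run from 6.20% to 6.58% in undifferentiated and from 4.75% to 5.59% in differentiated libraries, and the third differentiated BIGH3 library is the lowest.

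The group means of both subunits followed the same order. By library, the differentiated groups overlapped for large subunit genes. There a differentiated BIGH3 library at 3.33% lay above differentiated controls at 3.29% and 3.31%. For small subunit genes no groups overlapped. Large subunit genes took 3.78% ± 0.0227 (SD, n = 3) of reads in undifferentiated controls, 3.98% ± 0.0558 in undifferentiated BIGH3 cells, 3.32% ± 0.0442 in differentiated controls and 3.15% ± 0.208 in differentiated BIGH3 cells. Small subunit genes took 2.47% ± 0.0455, 2.56% ± 0.017, 2.19% ± 0.0368 and 1.97% ± 0.131. The ratio of large to small subunit reads averaged 1.53, 1.55, 1.52 and 1.60 in that order, and the 3 differentiated BIGH3 libraries (1.59 to 1.60) lay above the other 9. Per length, the most abundant members over all libraries were Rps24 with a mean of 4745 TPM, Rpl23a with 4549, Rps21 with 4171 and Rpl41 with 4090, all of them canonical members. The lowest canonical member was Rps27 with 26.5 TPM, a value that depends on how reads were split with a near-identical gene described further below.

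In undifferentiated cells, no ribosomal protein gene passed the test for BIGH3, but nearly all lay slightly on the higher side. Of the 82 tested, 77 (93.9%) had a log2 fold change above 0, against 49.8% of all genes tested, and all 31 small subunit proteins were among them. The median was 0.08 (quartiles 0.05 and 0.15), against 0.00 over all genes. edgeR's quasi-likelihood test with Benjamini-Hochberg adjustment called 0 members higher and 0 lower, where 0.00680% of all genes were called higher and 0.0136% lower, and DESeq2 also called 0. At an unadjusted p under 0.05 there were 16 members of 82, against 4.07% of all genes. The 3 BIGH3 libraries lay wholly above the 3 controls for 25 members and wholly below for 0, where 4.59% and 4.37% of all genes did so.

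The 5 members with the smallest p were Rpl17, Rpl23, Rpl15, Rpl36a and Rpl21, all large subunit proteins. Rpl17, which lines the exit tunnel, was at 1176, 1248 and 1256 CPM in the controls and 1311, 1502 and 1366 with BIGH3, a log2 fold change of 0.18 ± 0.06 (SE, as beside every log2 fold change below). Rpl23, a protein of the subunit interface, was at 1424, 1384 and 1478 and 1508, 1655 and 1608, a log2 fold change of 0.15 ± 0.05. These 2 did not overlap between the groups. Rpl15 had 747, 737 and 703 CPM in controls and 757, 874 and 849.7 with BIGH3, a log2 fold change of 0.18 ± 0.06. Rpl36a showed a log2 fold change of 0.22 ± 0.08 without overlap, and Rpl21 one of 0.19 ± 0.07 with overlapping libraries. Each had an adjusted p of 1.00.

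In differentiated cells, BIGH3 was accompanied by lower levels of some ribosomal protein genes, among them the paralog Rpl22l1 and the small subunit genes Rps12, Rps3a1 and Rps15a. Of 82 tested, 25 fell, 1 (Rpl29) rose and the rest did not pass, where 22.9% of all genes tested fell and 22.6% rose. Of the members, then, 30.5% fell and 1.22% rose. The median was -0.11 (quartiles -0.19 and -0.04), against -0.01 over all genes. The 3 BIGH3 libraries lay wholly below the controls for 25 members and wholly above for 1, where 27.8% and 27.3% of all genes did so. Small subunit genes had a median of -0.16 with 12 of 31 lower, and large subunit genes a median of -0.10 with 12 of 46 lower and 1 higher. The count of falls rested in part on 1 library: without the third differentiated BIGH3 library 15 fell, and without the first 40 fell. It was 15 without the 3 libraries with most hepatocyte marker reads, 14 without all 4, 13 on log2(TPM + 1) with limma and 30 with DESeq2. Of all 14711 genes tested, 2296 fell on log2(TPM + 1) and 3330 with DESeq2, against 3365 with edgeR and TMM scaling. On log2(TPM + 1) the share of members that fell was thus close to that of all genes.

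**Figure D2:**
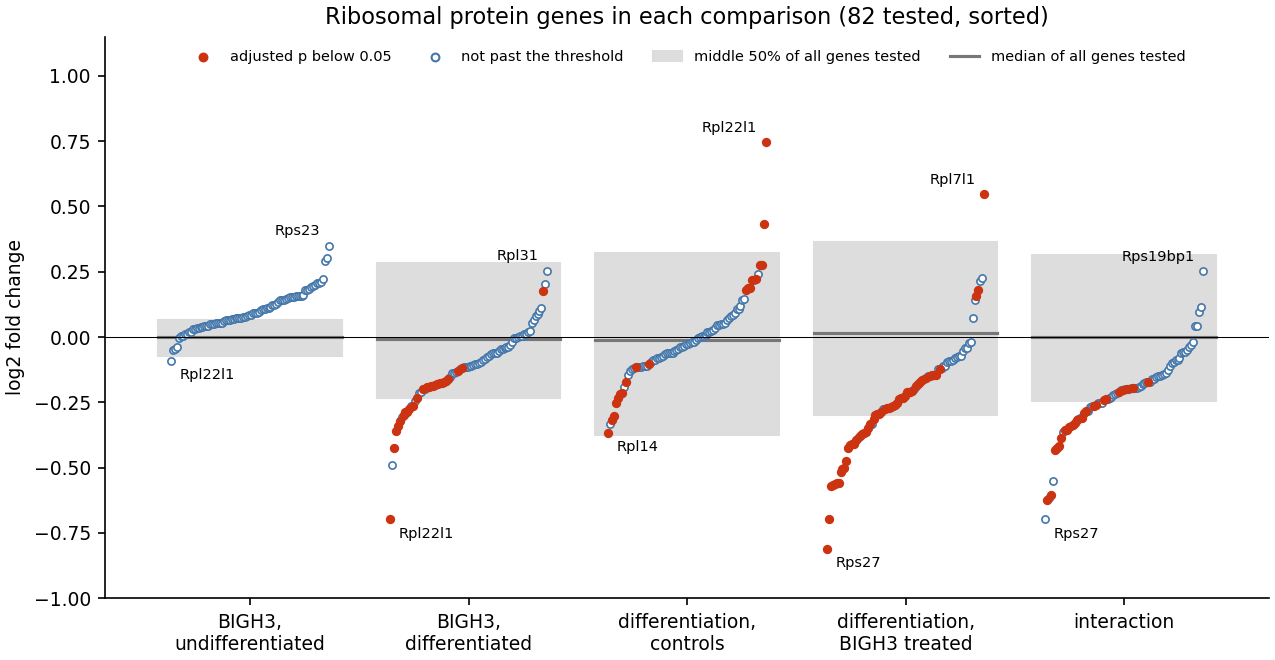
log2 fold change (vertical axis) of each of the 82 tested members in the 5 comparisons, sorted within each; filled points passed an adjusted p of 0.05 and grey boxes span the middle 50% of all genes tested, with their median as a line. Of the members, 77 lie above 0 for BIGH3 in undifferentiated cells, and 25 are called lower for BIGH3 in differentiated cells.

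Rpl22l1 is the paralog of Rpl22 and can take its place on the ribosome. It lies at chr3:28805436-28807424 on the plus strand. Its level was 121, 130.5 and 121 CPM in differentiated controls and 75.6, 80.9 and 73.7 with BIGH3, with no overlap, and it fell by 0.70 ± 0.09 on the log2 scale (adjusted p = 5.27e-05), a 1.62-fold fall. In undifferentiated cells it was 80.4, 82.0 and 60.4 CPM in controls and 67.5, 72.5 and 68.9 with BIGH3, where the groups overlapped. The differentiated BIGH3 libraries thus lay within the range of the undifferentiated controls, and differentiated controls stood above all the other groups. The fall kept its call under all 26 alternatives of processing and left-out libraries, from -0.744 to -0.634. Rpl22 itself, on the large subunit's surface, went from 448, 427 and 444 CPM to 404, 394 and 361 and fell by 0.19 ± 0.05 (adjusted p = 0.00379), a call lost on the TPM scale and with length offsets.

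Rps12, a protein of the small subunit's beak at chr10:23785183-23787275 on the minus strand, had 590.5, 695 and 690.2 CPM in differentiated controls and 522, 510.5 and 439 with BIGH3. The groups did not overlap, and it fell by 0.43 ± 0.09 (adjusted p = 0.00179). Rps3a1, which lies beside the path by which messenger RNA leaves the small subunit, had 1523, 1355 and 1371 CPM against 1152, 1106 and 1057. It fell by 0.36 ± 0.05 (adjusted p = 7.81e-06), again with no overlap. Rps15a, a protein of the small subunit's body, had 505, 534 and 484 CPM against 422, 409 and 372 and fell by 0.34 ± 0.06 (adjusted p = 0.000262). For Rps3a1 and Rps15a the differentiated BIGH3 libraries were below every library of the other 3 groups. All 3 calls held under every alternative run.

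**Figure D3:**
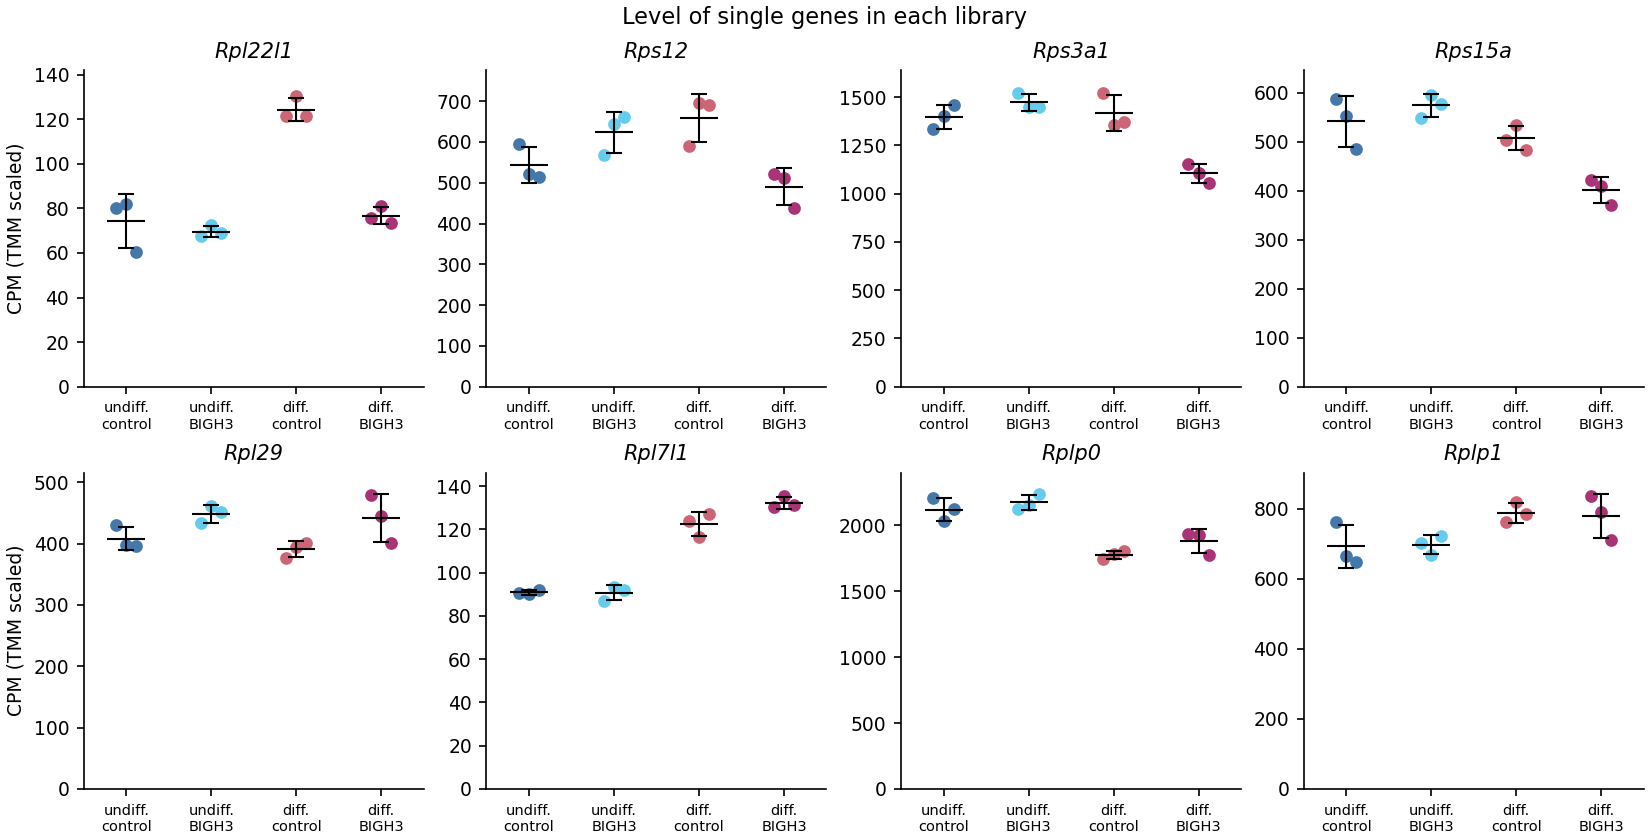
Level in CPM after TMM scaling (vertical axes from 0) of 8 genes in each library (points), with the mean and SD of each group of 3 (black). Rps3a1 and Rps15a are lowest in the 3 differentiated BIGH3 libraries, Rpl22l1 is highest in the 3 differentiated controls, and Rpl7l1 is higher in all 6 differentiated libraries.

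Among the proteins at the messenger RNA channel, Rps2 and Rps3 stand at the entry and Rps14, Rps26 and Rps28 at the exit. Both entry proteins and, of these exit proteins, Rps14 fell with BIGH3 in differentiated cells. Rps2 had 2274, 2194 and 2152 CPM in controls and 1972, 1879 and 1614 with BIGH3, and fell by 0.28 ± 0.06 (adjusted p = 0.00116) in every alternative. Rps3 fell by 0.16 ± 0.05 (adjusted p = 0.0161), but not without the third differentiated BIGH3 library (adjusted p = 0.0638), without the 3 or 4 libraries with most hepatocyte marker reads (0.0712 and 0.111), with length offsets or on the TPM scale. Rps14 fell by 0.19 (adjusted p = 0.02), a call lost without the third differentiated BIGH3 library (adjusted p = 0.0751) or the second differentiated control (adjusted p = 0.0648), with length offsets, on the TPM scale, or without the 3 or 4 libraries with most hepatocyte marker reads (adjusted p = 0.243 and 0.328). Rps26 and Rps28 had log2 fold changes of 0.01 (adjusted p = 0.894) and -0.11 (adjusted p = 0.547).

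Of the large subunit, the 5S particle is the module of Rpl5, Rpl11 and 5S RNA that also binds the p53 regulator Mdm2 when assembly fails. Rpl11 had 574, 531 and 504 CPM in differentiated controls and 465, 445 and 398 with BIGH3, without overlap, and fell by 0.30 ± 0.06 (adjusted p = 0.00048) in every alternative. Rpl5 alone showed a log2 fold change of -0.25 ± 0.19 (adjusted p = 0.322), and most of its reads were assigned to a copy, as given below. Of 8 proteins of the exit tunnel and its rim, 4 (Rpl4, Rpl17, Rpl19 and Rpl26) fell and 0 rose, with a median of -0.14, where 22.9% of all genes tested fell. Rpl19 and Rpl26 are named because they make up this count, and their libraries overlapped between the groups. The count was 2 with library totals, 3 with length offsets and 1 on log2(TPM + 1). Of all 14711 genes tested, 3183, 2968 and 2296 fell in these settings. Among them Rpl17 went from 1116, 1126 and 1219 CPM to 1029, 996 and 917 and fell by 0.23 ± 0.06 (adjusted p = 0.00176). Rpl4, whose extension reaches into the tunnel, fell by 0.12 (adjusted p = 0.0427), a call lost in 13 of 26 alternatives. Among these were leaving out the third differentiated BIGH3 library (adjusted p = 0.107), the first or the third differentiated control (0.15 and 0.0525) or the third undifferentiated BIGH3 library (0.0578), library totals (0.0645) and log2(TPM + 1) (0.324). Rpl39, the small protein of the tunnel wall, showed a log2 fold change of -0.15 ± 0.16 (adjusted p = 0.491).

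Rpl13a, which is also known for a role in silencing inflammatory messenger RNAs, had 1193, 1065 and 1084 CPM in differentiated controls and 978, 949 and 856 with BIGH3. It fell by 0.26 ± 0.06 (adjusted p = 0.000565) in every alternative. Of the stalk that recruits elongation factors, Rplp2 fell by 0.20 (adjusted p = 0.0264), while Rplp0 and Rplp1 did not pass. The call of Rplp2 was lost in 7 of 26 alternatives (adjusted p up to 0.152). Among these were leaving out the third differentiated BIGH3 library (adjusted p = 0.0964), the first differentiated control (0.0775) or the second (0.0602). Rpl3 at the peptidyl transferase centre showed a log2 fold change of 0.00 (adjusted p = 0.992), Rpl41 one of -0.08 (adjusted p = 0.504), Rps6, the target of S6 kinase, one of -0.11 (adjusted p = 0.105), and Rpsa, also known as the laminin receptor, one of -0.05 (adjusted p = 0.456). The 1 gene that rose, Rpl29, had 377, 395 and 401 CPM in controls and 479, 446 and 400.4 with BIGH3, which overlap. Its rise of 0.18 ± 0.06 (adjusted p = 0.016) was lost without the first differentiated BIGH3 library (adjusted p = 0.153), the second (0.0615) or the first differentiated control (0.089).

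Mutations of some of these genes are known causes of Diamond-Blackfan anaemia, an inherited failure of red cell formation. A fixed list of 15 such genes was counted, which need not hold all of them. With BIGH3 in differentiated cells 2 of the 15 (Rpl11 and Rpl26), or 13.3%, fell and 0 rose, where 22.9% and 22.6% of all genes tested did so, with a median of -0.11. Rps10 showed a log2 fold change of 0.02 (adjusted p = 0.772) and Rpl15 one of 0.09 (adjusted p = 0.26).

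The difference between the BIGH3 effects in the 2 states was tested as an interaction, the effect in differentiated minus that in undifferentiated cells. For 24 of 82 members it was lower and for 0 higher, where 16.0% of all genes tested were lower and 16.2% higher. The median was -0.20, against 0.00 over all genes, and 5 of 82 were above 0, where 50.1% of all genes were. edgeR gave an unadjusted p under 0.05 for 41 members in either direction, where 41.5% of all genes had one, and DESeq2 called 35 lower and 0 higher. Without the first differentiated BIGH3 library 44 were lower, with no low-count filter 41, without the 3 libraries with most hepatocyte marker reads 13, without all 4 it was 11, and on log2(TPM + 1) 5. Of all 14711 genes tested, 1141 were lower on log2(TPM + 1) and 2316 with DESeq2, against 2352 with edgeR and TMM scaling. On log2(TPM + 1) the share of members that were lower was thus below that of all genes. Small subunit genes had a median of -0.24 with 11 of 31 lower, and large subunit genes one of -0.19 with 12 of 46 lower.

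Among members that passed the test, the largest interactions were those of Rps12 and Rpl22l1, while Rps27 had -0.70 ± 0.36 (adjusted p = 0.161) and Rps23 -0.62 ± 0.29 (adjusted p = 0.154). For Rps12, undifferentiated libraries held 595, 520.5 and 515 CPM in controls and 567, 643 and 661 with BIGH3, which overlap, beside the differentiated values above. The interaction was -0.62 ± 0.13 (adjusted p = 0.00222). For Rpl22l1 it was -0.61 ± 0.13 (adjusted p = 0.00387). Rps3a1 had 1336, 1401 and 1459 CPM in undifferentiated controls and 1524, 1448 and 1448 with BIGH3, and an interaction of -0.43 ± 0.07 (adjusted p = 9.05e-05). Rps15a had -0.42 ± 0.09 (adjusted p = 0.00135), Rpl17 -0.42 ± 0.08 (adjusted p = 0.000332) and Rpl21 -0.39 ± 0.10 (adjusted p = 0.00595). Rpl21 lost its call on the TPM scale, while the other 5 kept theirs in every alternative.

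In control cells, differentiation moved members in both directions and left their median near that of all genes. With TMM scaling, 9 of 82 rose and 10 fell, where 29.1% of all genes tested rose and 28.6% fell, and the median was -0.03 against -0.01. The libraries of the 2 groups did not overlap for 11 members that were higher and 16 that were lower, where 31.9% and 31.5% of all genes did so. This split depended on scaling. With library totals 2 rose and 43 fell, and on log2(TPM + 1) 1 rose and 59 fell. Of all 14711 genes tested, 2930 rose and 5899 fell with library totals, and 1729 rose and 6946 fell on log2(TPM + 1). Those scalings also moved the median of all genes, by -0.149 and -0.238. Relative to the median of all genes, the members' median ran from -0.070 on the TPM scale to 0.009 with length offsets. The 43 and 59 falls therefore stand beside a general shift, and the higher share of mitochondrially encoded reads in differentiated libraries moved with it. Its part was not tested.

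**Figure D4:**
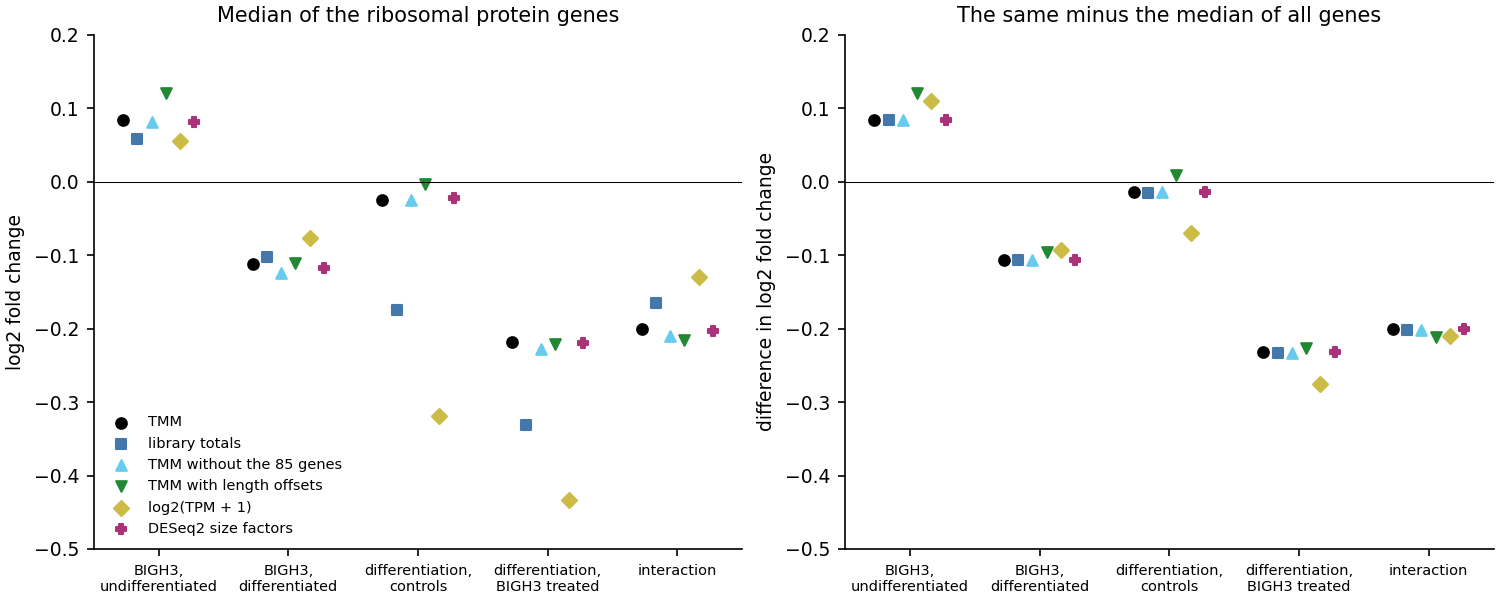
Median log2 fold change of the 82 tested members under 6 scalings (left) and the same minus the median of all genes tested (right), for the 5 comparisons. For differentiation in controls the left values run from -0.319 to near 0, and relative to all genes from -0.070 to 0.009, while the values for BIGH3 in differentiated cells and for the interaction stay below 0 under each scaling.

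The largest falls in differentiated controls among members that passed the test were those of Rpl14, Rps24, Rps19, Rplp0, Rps6 and Rpl3, while Rpl10a had -0.33 ± 0.13 (adjusted p = 0.0525). Rplp0, the base of the stalk and a common reference gene in PCR, had 2204, 2033 and 2122 CPM in undifferentiated and 1743, 1784 and 1806 in differentiated controls, without overlap. It fell by 0.25 ± 0.05 (adjusted p = 6.62e-05), and did so in every alternative. Rps19, a small subunit protein of the head and a leading Diamond-Blackfan anaemia gene, had 455, 427 and 419 CPM against 364, 353 and 338 and fell by 0.30 ± 0.06 (adjusted p = 0.000211). Rpl3 had 1089, 1088 and 1060.3 CPM against 940.2, 911 and 936 and fell by 0.22 ± 0.04 (adjusted p = 8.16e-05). None of these 3 overlapped between the groups. Rpl14 fell by 0.37 ± 0.08 (adjusted p = 0.00219), Rps24 by 0.32 ± 0.08 (adjusted p = 0.00339) and Rps6 by 0.23 (adjusted p = 0.00124). The fall of Rpl14 was lost when only its protein-coding transcripts were counted (adjusted p = 0.22).

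The largest rises in differentiated controls among members that passed the test were those of Rpl22l1, Rpl7l1, Rps12, Rpl36al, Rpl12 and Rpl36. Rpl22l1 rose by 0.75 ± 0.09 (adjusted p = 1.68e-05) in every alternative, with all 3 differentiated controls above the 6 undifferentiated libraries. Rpl7l1, a relative of Rpl7 known from ribosome assembly, had 90.5, 90.1 and 92.0 CPM in undifferentiated and 124, 116 and 127 in differentiated controls and rose by 0.43 ± 0.05 (adjusted p = 1.12e-07). On the TPM scale its difference was 0.12 (adjusted p = 0.342). Rps12 rose by 0.28 (adjusted p = 0.0173), a call lost in 6 of 26 alternatives and turned in direction in 2 others. Among the losses were leaving out the second or the third undifferentiated control (adjusted p = 0.0596 and 0.0836) or the second or the third differentiated control (0.051 and 0.0543). Rpl36al rose by 0.28 (adjusted p = 0.00111), Rpl36 by 0.22 (adjusted p = 0.0024) and Rps2 by 0.19 (adjusted p = 0.0132). The call of Rps2 was lost in 3 of 26 alternatives. Among these were leaving out the second undifferentiated control (0.079) or the first differentiated control (0.0507). On the TPM scale Rpl36al, Rpl36, Rps2 and Rps12 had differences below 0, so that their direction rests on the scaling. Rplp1 had 763, 667 and 648 CPM against 761, 819 and 785, which overlap, and rose by 0.19 ± 0.06 (adjusted p = 0.0161). The call of Rplp1 was lost in 7 of 26 alternatives. Among these were leaving out the second or the third undifferentiated control (0.072 and 0.0888) or the second differentiated control (0.064). Rplp1 too turned on the TPM scale.

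In cells treated with BIGH3, differentiation was accompanied by lower levels of most members. Of 82 tested, 51 fell and 3 (Rplp1, Rpl36al and Rpl7l1) rose, where 27.7% of all genes tested fell and 28.9% rose. The median was -0.22 (quartiles -0.36 and -0.11), against 0.01 over all genes. The libraries lay wholly lower for 51 members and wholly higher for 3, where 30.5% and 32.0% of all genes did so. Large subunit genes had 29 of 46 lower with a median of -0.22, small subunit genes 22 of 31 with -0.27, and the listed Diamond-Blackfan anaemia genes 9 of 15 with -0.23. With library totals 67 fell and 1 rose and on log2(TPM + 1) 70 fell and 0 rose, where the median of all genes moved by -0.112 and -0.171. Of all 14711 genes tested, 5304 fell and 3107 rose with library totals, and 5768 fell and 2129 rose on log2(TPM + 1). Relative to all genes the members' median stayed between -0.276 and -0.226. This comparison shares its libraries with both BIGH3 comparisons, so its values are not independent of them.

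The largest falls here among members that passed the test were those of Rps27, Rpl5, Rps24, Rps23, Rpl10a and Rpl14. Rps24, a small subunit protein and a Diamond-Blackfan anaemia gene, had 1605, 1621 and 1594 CPM in undifferentiated and 1190.2, 1097 and 956 in differentiated BIGH3 cells. It fell by 0.57 (adjusted p = 3.15e-05), without overlap. Rps19 had 473, 442 and 470.3 CPM against 356, 329 and 292 and fell by 0.50 ± 0.06 (adjusted p = 4.53e-07). Rpl17 fell by 0.51 (adjusted p = 1.5e-07), Rpl22 by 0.42 (adjusted p = 2.86e-07), Rps6 by 0.41 (adjusted p = 2.65e-06), Rpl4 by 0.29 (adjusted p = 2.81e-05) and Rps26 by 0.23 (adjusted p = 0.000917). Rpl14 fell by 0.56 (adjusted p = 8.33e-05) and Rpl10a by 0.56 (adjusted p = 0.00475). Rps23, a protein of the decoding centre, fell by 0.57 (adjusted p = 0.0453), but among many other settings not without the third differentiated BIGH3 library (adjusted p = 0.127) or the second undifferentiated BIGH3 library (0.146), and its protein-coding transcripts alone gave 0.02. Rplp0 fell by 0.21 (adjusted p = 0.000491) and Rpl3 by 0.23 (adjusted p = 3.65e-05). Rpl7l1 had 86.7, 93.2 and 91.9 CPM against 130.2, 136 and 131 and rose by 0.55 ± 0.05 (adjusted p = 3.91e-09), while on the TPM scale its difference was 0.20 (adjusted p = 0.13).

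The paralogs are given here beside the canonical genes they resemble. Rpl36al encodes nearly the same protein as Rpl36a, and the 2 coding sequences of 318 bases differ at 39 positions. The first 60 coding bases are printed to show how reads of the 2 genes can be told apart, with the 11 positions that differ in capitals.
Rpl36a: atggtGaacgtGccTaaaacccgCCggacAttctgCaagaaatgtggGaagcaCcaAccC
Rpl36al: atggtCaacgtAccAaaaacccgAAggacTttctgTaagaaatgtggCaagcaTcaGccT
In differentiated controls Rpl36al rose by 0.28 with 116, 122 and 134 CPM in undifferentiated and 156, 145 and 149.9 in differentiated libraries, where Rpl36a showed a log2 fold change of 0.00 (adjusted p = 0.989). In BIGH3-treated cells Rpl36al rose by 0.18 (adjusted p = 0.024) and Rpl36a fell by 0.23 (adjusted p = 0.0209). Of the reads of Rpl36a and its processed copies, described further below, 25.1% were on copies, mostly Rpl36a-ps2, alike at 100% of coding bases. With copies added, edgeR gave Rpl36a -0.09 (adjusted p = 0.223) with differentiation in controls and -0.32 (adjusted p = 0.000291) in BIGH3-treated cells. The rise of Rpl36al in BIGH3-treated cells was lost in 7 of 26 alternatives, with values down to 0.00606 (adjusted p up to 0.941). Among these were leaving out the first or second undifferentiated BIGH3 library (adjusted p = 0.0754 and 0.069) or the first or second differentiated BIGH3 library (0.183 and 0.0987). Whether the 2 genes differed from each other was not tested. Rps19bp1, which encodes a protein that binds Rps19, was at 12.6 to 19.0 CPM and passed no test. Rpl10l, known from the testis, had 0 reads in all 12 libraries, which allows up to 0.0111 CPM over the reads of all libraries, by counting error only. Rpl3l, known from striated muscle, had 2 reads and Rpl39l 18 in all, and none of these 3 was tested.

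Rps27 and Rps27rt, a retrogene, cannot be told apart by their coding sequences, which are identical. The 27 bases before the start codon and the start codon itself, in capitals, are printed to show that the identity runs on into the leader.
Rps27: cggcggtgacgacctccctacgagaacATG
Rps27rt: cggcggtgacgacctccctacgagaacATG
All 30 bases are alike (chr3:90213613-90213642 and chr9:114982705-114982734, both minus strand, GRCm38.p6). Rps27 was estimated at 3.54 to 9.24 CPM and Rps27rt at 345 to 538 CPM, so the values of each are uncertain and rest on how reads were divided. In BIGH3-treated cells, Rps27 fell by 0.81 ± 0.26 with differentiation (adjusted p = 0.0157), a call lost in 4 of 26 alternatives (adjusted p up to 0.148). Among these were leaving out the first undifferentiated BIGH3 library (adjusted p = 0.0689) or the first differentiated BIGH3 library (0.0626). Rps27rt showed a log2 fold change of -0.28 ± 0.15 there (adjusted p = 0.15).

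Processed copies of these genes, made by reverse transcription of their messenger RNAs, were assigned many reads beside some members. Whether those reads came from the gene or from a transcribed copy was not tested. A search by BLAST for transcripts alike at 90% or more of bases over 80% or more of the coding sequence found 968 copies of 77 members. In 13 members over 10% of the reads of gene and copies were on the copies, in 3 over 50%, and in 68 under 1%. Copies together took 0.560% ± 0.0189 (SD, n = 3) of matched reads in undifferentiated controls, 0.556% ± 0.0351 in undifferentiated BIGH3 cells, 0.475% ± 0.0534 in differentiated controls and 0.422% ± 0.00947 in differentiated BIGH3 cells. Members and copies together took 6.81%, 7.10%, 5.99% and 5.54%, the same order of groups as the members alone.

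Rpl12, a protein at the base of the stalk, had the largest share of reads on copies. It had 17059 reads over the 12 libraries and its copies 390219, or 95.8%, nearly all on Gm10275 (389728 reads), a transcribed processed pseudogene at chr10:29698746-29699380. All 495 coding bases of Rpl12 are found unchanged in Gm10275. The first 60 are printed because they, like the rest, cannot tell the 2 apart.
Rpl12 and Gm10275: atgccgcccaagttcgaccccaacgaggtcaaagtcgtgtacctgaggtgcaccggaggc
Alone, Rpl12 rose with differentiation in controls by 0.22 (adjusted p = 0.00461) and fell with BIGH3 in differentiated cells by 0.19 (adjusted p = 0.0168). With its copies, it had mean levels of 1559, 1717, 1335 and 1378 CPM in the 4 groups in the order above, fell with differentiation in controls by 0.23 (adjusted p = 0.00204) and showed a log2 fold change of 0.04 for BIGH3 in differentiated cells (adjusted p = 0.637). The direction of Rpl12 in differentiated controls thus turned with the counting.

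For Rpl5, 89.2% of reads were on copies, mostly Gm15500 at chr7:114705217-114706235. With them Rpl5 fell with BIGH3 in differentiated cells by 0.14 (adjusted p = 0.0248), where alone its value did not pass. With differentiation in BIGH3-treated cells it fell with copies by 0.31 (adjusted p = 1.94e-05), and alone by 0.70 (adjusted p = 0.011). That call of Rpl5 alone was lost in 2 of 26 alternatives (adjusted p up to 0.0951). One was leaving out the 3 libraries with most hepatocyte marker reads (0.0548). For Rpl10, a protein needed at the last step of large subunit maturation, 88.3% were on copies, mostly Rpl10-ps3 at chr9:50344201-50344968. With them it fell with BIGH3 in differentiated cells by 0.37 (adjusted p = 3.71e-06), where alone it had -0.30 (adjusted p = 0.162). Rps23 with copies fell by 0.27 (adjusted p = 0.00087) and Rpl28 by 0.29 (adjusted p = 0.000121) in the same comparison. Rps12 had 7.94% of its reads on copies, from 0.0399% to 22.1% across libraries, and with them fell by 0.56 (adjusted p = 9.89e-08). In all, 33 members fell with BIGH3 in differentiated cells when copies were added. The share of all genes that fell in that run is not given here, so this count cannot be set against it.

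**Figure D5:**
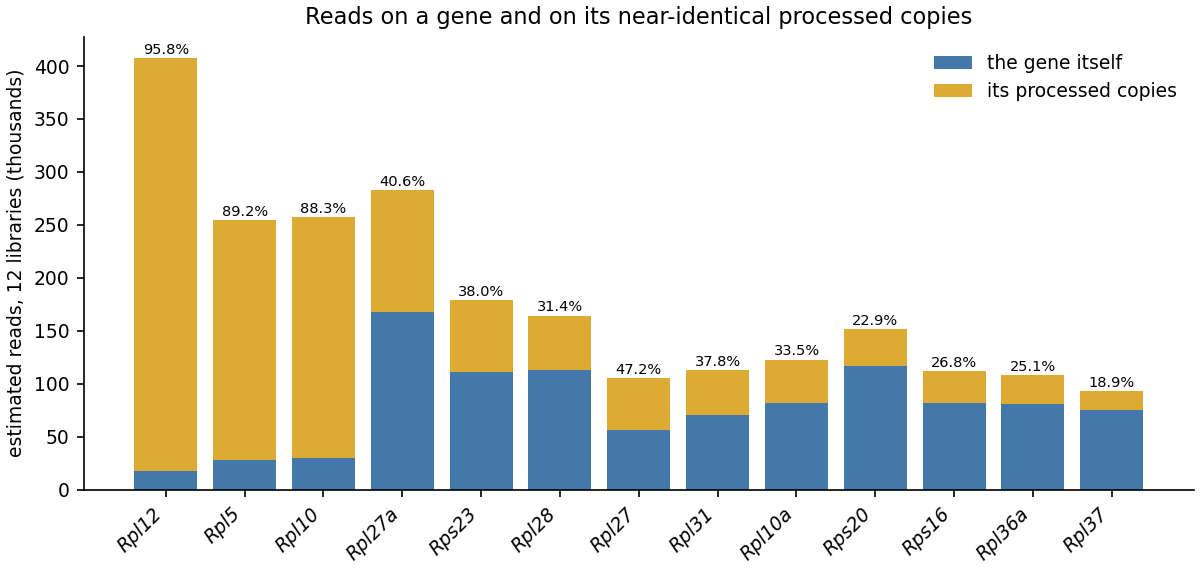
Estimated reads over the 12 libraries (vertical axis in units of 1000 reads, from 0) on each of the 13 genes with over 10% of reads on copies (blue) and on their processed copies (yellow), with the percent on copies above each bar. Copies hold 95.8% for Rpl12, 89.2% for Rpl5 and 88.3% for Rpl10.

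Other genes of the ribosome's production were counted from lists chosen by known function. For BIGH3 in undifferentiated cells the medians of the 6 lists below ran from -0.003 to 0.035. Of 20 genes with a TOP motif outside the ribosome, mostly translation factors, 8 fell and 3 rose with BIGH3 in differentiated cells, where 22.9% and 22.6% of all genes tested did so, with a median of -0.07. On log2(TPM + 1) 3 fell and 2 rose, where 2296 and 2828 of all 14711 genes tested did so. Eef1a1, the factor that brings aminoacyl-tRNA, fell by 0.17 (adjusted p = 0.00162), Eef1d, of its exchange factor, fell by 0.35 (adjusted p = 0.00015), and Hnrnpa1, an RNA-binding protein, rose by 0.45 (adjusted p = 0.000619). With differentiation 13 of the 20 fell and 0 rose in controls, and 14 fell and 1 rose in BIGH3-treated cells, with medians of -0.18 and -0.25. Of all genes tested 28.6% fell and 29.1% rose in controls, and 27.7% and 28.9% in BIGH3-treated cells. Among them Eif3f, an initiation factor subunit, fell by 0.44 and 0.56 (adjusted p = 6.12e-07 and 1.92e-08).

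Of 54 ribosome assembly genes, 11 (20.4%) rose and 9 (16.7%) fell with BIGH3 in differentiated cells, with a median of -0.02, where 22.6% of all genes tested rose and 22.9% fell. These same shares over all genes stand beside the other 3 lists here. Gnl3, a nucleolar GTPase, rose by 0.41 (adjusted p = 7.33e-06), and Sbds, which helps release the anti-association factor Eif6, fell by 0.37 (adjusted p = 1.16e-06). With differentiation 18 rose and 8 fell in controls and 19 rose and 11 fell in BIGH3-treated cells with TMM scaling, where library totals gave 11 and 18 in controls, and log2(TPM + 1) gave 2 and 25. Of all 14711 genes tested, 2930 rose and 5899 fell in controls with library totals, and 1729 and 6946 on log2(TPM + 1). Gnl3 rose by 0.46 in controls and 0.99 in BIGH3-treated cells (adjusted p = 9.94e-07 and 1.14e-11). Of 14 RNA polymerase I genes, 1 (Taf1d) rose with BIGH3 in differentiated cells, or 7.14%, by 0.31 (adjusted p = 0.000923), and 0 fell. Of 12 host transcripts of small nucleolar RNAs, which guide ribosomal RNA modification, 3 rose and 1 (8.33%) fell, with Snhg8 higher by 0.66 (adjusted p = 4.12e-06) and Snhg15 by 0.67 (adjusted p = 5.78e-06). Of 16 regulators of growth and translation, 3 (18.8%) rose and 2 (12.5%) fell, among them Trp53, which rose by 0.44 (adjusted p = 2.54e-06), and Akt1, which fell by 0.32 (adjusted p = 0.000194).

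The proteins of the mitochondrial ribosome, which are also encoded in the nucleus, gave other counts than the cytosolic ones. With differentiation, 53 of 78 rose and 0 fell in controls, with a median of 0.29, where 29.1% of all genes tested rose and 28.6% fell. In BIGH3-treated cells 46 rose and 4 fell, with a median of 0.25, where 28.9% and 27.7% of all genes did so. Mrps7 rose by 0.52 (adjusted p = 1.19e-07) and Mrpl36 by 0.75 (adjusted p = 2.32e-07) in controls. These counts rest on the scaling: with library totals 35 rose and 7 fell in controls, and on log2(TPM + 1) 12 rose and 12 fell. The calls over all 14711 genes moved too, to 2930 higher and 5899 lower with library totals and 1729 and 6946 on log2(TPM + 1). The list's median in controls was 0.141 with library totals, against -0.160 over all genes. On log2(TPM + 1) it was -0.020, against -0.249, so it stayed above that of all genes. With BIGH3 in differentiated cells, 11 of the 78 (14.1%) rose and 14 (17.9%) fell, where 22.6% and 22.9% of all genes tested did so, with a median of -0.04, beside -0.11 for the cytosolic genes. On log2(TPM + 1) 12 rose and 5 fell, where 2828 and 2296 of all 14711 genes tested did so. The difference between the 2 families was not tested.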

How the data were processed

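Bulk RNA of 12 libraries was sequenced. The deposited quantification files hold, per the file headers, estimated counts (NumReads) and TPM for each transcript. FastQC, cutadapt, Salmon, StringTie and mm10 are named in the submitters' processing notes, and their versions are not given in the sources used here. Of 147828 transcripts, 137063 matched the GENCODE annotation (GRCm38), and their values were summed per gene. Estimated counts were rounded, filtered by edgeR's filterByExpr and scaled by TMM. edgeR 4.0.16 (R 4.3.3) fitted a quasi-likelihood model to all 12 libraries with 1 term per group and no replicate block, leaving 8 residual degrees of freedom, with Benjamini-Hochberg adjustment across all 14711 tested genes and a call at an adjusted p under 0.05. Between libraries of a group the biological coefficient of variation was 8.18%, and log2 fold changes had a median SE of 0.0887. CPM are TMM-scaled counts in 1000000 reads, except those of the hepatocyte markers, which were not TMM-scaled.

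The members and lists were chosen with earlier results of these data known, and the lists are described by counts and medians without a test. Named genes were members with known roles, the paralogs, and for each comparison the 6 called members with the largest rise and the 6 with the largest fall, or the 5 with the smallest p where fewer than 5 were called. For the pathway lists, examples came from the up to 4 called members with the smallest adjusted p. Values of some single genes that these rules name are not reported here. Processed copies were found with BLAST 2.17.0. Alternatives were DESeq2 1.42.0, limma 3.58.1 on log2(TPM + 1) and log2(TPM + 0.1) of the deposited TPM, library totals, TMM without the members, length offsets, no low-count filter, a replicate block, the compared groups alone, protein-coding transcripts only, added pseudogenes and each library left out in turn. Adding the copies found by sequence and leaving out the 3 or 4 libraries with most hepatocyte marker reads were chosen after seeing the data. Tables were handled with Python 3.11.15 and pandas 2.3.3. The model was checked on simulated counts.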

Additional observations from a re-analysis of the deposited data

Results flagged for a closer look

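The effect of BIGH3 differed between the 2 states, by edgeR's interaction test, for 24 ribosomal protein genes, all with a lower value in differentiated cells. Among the genes named here, the interaction on the log2 scale was -0.62 for Rps12, -0.61 for Rpl22l1, -0.43 for Rps3a1, -0.42 for Rps15a and -0.42 for Rpl17. It was -0.39 for Rpl21, -0.36 for Rpl13a, -0.34 for Rpl11 and -0.31 for Rpl22. It was -0.28 for Rps2, -0.24 for Rps14 and -0.20 for Rps3. Of 25 alternatives the call was lost in 16 for Rps14 (adjusted p up to 0.402), in 14 for Rps3 (to -0.0291, adjusted p up to 0.847) and in 5 for Rps2 (adjusted p up to 0.21). It was lost in 4 for Rpl11 and in 2 each for Rpl13a, Rpl21 and Rpl22, and in 0 for the other 5 genes.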

How the results depend on the processing

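For BIGH3 in undifferentiated cells 0 members were called under every alternative run. For BIGH3 in differentiated cells the 25 falls became 13 on log2(TPM + 1) and on log2(TPM + 0.1), 15 and 14 without the 3 and the 4 libraries with most hepatocyte marker reads, and 15 to 40 with 1 library left out (15 without the third and 40 without the first differentiated BIGH3 library). The 1 rise became 2 with library totals, 3 with protein-coding transcripts only, and 0 to 1 with 1 library left out. For differentiation in controls, the 9 rises became 2 with library totals and 1 on both TPM scales. The 10 falls became 43, 59 on both TPM scales, and 7 to 16 with 1 library left out. The median of -0.03 became -0.175 with library totals and -0.319 on both TPM scales, and the summed level, -0.182 as a log2 ratio of shares of reads, became -0.302 in summed TPM. For differentiation in BIGH3-treated cells, the 3 rises became 1 with library totals, 0 on both TPM scales, 5 in the compared groups alone and 1 to 4 with 1 library left out. Its median of -0.22 became -0.332 and -0.433 with library totals and TPM. For the interaction, the 24 falls became 41 without the low-count filter, 5 on both TPM scales, 13 and 11 without the 3 and the 4 libraries, and 16 to 44 with 1 library left out. The 0 rises became 1 with protein-coding transcripts only, 1 and 1 without the 3 and the 4 libraries, and 0 to 1 with 1 library left out. Calls over all genes moved as well. On log2(TPM + 1), 2296 of 14711 genes fell with BIGH3 in differentiated cells, against 3365 with TMM scaling. For the interaction 1141 were lower on log2(TPM + 1), against 2352. The cause of these changes was not tested, beyond the smaller number of libraries where some were left out.

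Some single genes changed direction. For differentiation in controls, Rpl12 came to -0.253 with protein-coding transcripts only and -0.225 with copies added. On log2(TPM + 1) Rpl36 came to -0.0794, Rpl36al to -0.01, Rplp1 to -0.109, Rps12 to -0.00783 and Rps2 to -0.103, and Rplp1 in BIGH3-treated cells to -0.0517, with the same signs on log2(TPM + 0.1), where Rpl36 had -0.0795. With protein-coding transcripts only, in BIGH3-treated cells, Rps23 came to 0.0162 and Rpsa to 0.0792. Of 65 called results for single genes, DESeq2 kept 65, library totals 54, TPM 43, length offsets 56, protein-coding transcripts only 54, added copies 64, and leaving out 1 library 57 to 64.

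With a replicate block 24 members fell with BIGH3 in differentiated cells, and 63 of the 65 single-gene results kept their call. The deviations of the 18 same-numbered pairs had correlations from -0.227 to 0.336, with 5 above 0.1. By mean correlation with libraries of the other groups, 3 of 12 libraries were closest to those with their own number. These values cannot show whether same-numbered libraries shared a culture or day, which the labels do not say. Genes of low count, such as Rps27, have the widest errors.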
